A study of Homo sapiens with 9 samples.

Results

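Vasoactive peptides and their partners are described here as 7 of the 60683 genes in a table of read counts from Hep3B cells, a human liver cancer line. The genes were taken by symbol, with no threshold on their measured values: the peptide precursors ADM, ADM2, EDN1, NPPB and AGT, the receptor partner RAMP1 and the peptidase ECE1. The set and the gene lists used below were chosen with earlier results of these data known. All 7 reached 10 counts in the sum of the 9 libraries and were tested among the 22672 genes that did. The study asked how 32-134D, an inhibitor of the hypoxia-inducible factors (HIFs), alters the transcriptional response to low oxygen.

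Each group held 3 libraries from biological replicates, and the exposure lasted 24 hours. Normoxic vehicle cells received DMSO at 20% O2, hypoxic vehicle cells received DMSO at 1% O2, and 32-134D cells received the compound at 1% O2. The labels give no dose of the compound, and no group received it at 20% O2. All libraries came from 1 cell line of tumor origin grown without blood vessels, heart muscle or blood flow, so the mRNAs were measured away from the tissues on which these peptides act.

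Vasoactive peptides are secreted messengers that widen or narrow blood vessels and adjust salt and water balance. Adrenomedullin and its relatives, with the natriuretic peptides, dilate vessels, whereas endothelin-1 and the angiotensin peptides made from angiotensinogen constrict them. HIFs are transcription factors that accumulate when oxygen is scarce and bind the core sequence ACGTG or GCGTG, and the liver is the main source of circulating angiotensinogen.

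At 1% O2, 3 of the 5 peptide precursors (ADM, ADM2 and NPPB) rose and EDN1 fell. With 32-134D at 1% O2, all 4 moved the opposite way. The ADM2 call there was lost without replicate 1 or replicate 2 of 32-134D, and with scaling to total library size. Both comparisons use the hypoxic vehicle group, so opposite signs in them are not separate evidence. Of all genes tested, 19.5% were called higher and 20.3% lower in hypoxia, and 16.2% and 13.7% with the compound. Of the 7 genes only ADM was still called against normoxic vehicle cells. In that comparison 681 of the 22672 genes tested were called higher and 117 lower. AGT, ECE1 and RAMP1 passed the thresholds in none of the 3 comparisons.

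Promoters of 4 precursors are printed because they let the sequence around the start be read beside the changes: ADM and ADM2, which rose in hypoxia, EDN1, which fell, and AGT, which was not called. Each runs from 250 bases before the RefSeq transcription start to 50 bases after it, on GRCh38.p14 and in the direction of the gene. Capitals mark ACGTG or GCGTG on either strand, so that the same letters on the other strand appear as CACGT or CACGC and no match overlaps another. The ADM promoter is chr11:10304823-10305122 on the plus strand, and that of ADM2 is chr22:50481293-50481592 on the plus strand. The EDN1 entry that starts nearest to the annotated gene start is chr6:12290111-12290410 on the plus strand, and the AGT promoter is chr1:230714073-230714372 on the minus strand.
ADM: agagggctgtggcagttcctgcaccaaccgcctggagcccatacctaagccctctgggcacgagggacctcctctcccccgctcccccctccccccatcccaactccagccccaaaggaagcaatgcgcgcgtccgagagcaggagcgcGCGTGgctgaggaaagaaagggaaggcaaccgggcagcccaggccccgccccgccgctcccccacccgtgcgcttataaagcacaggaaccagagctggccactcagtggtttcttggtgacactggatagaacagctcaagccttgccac
ADM2: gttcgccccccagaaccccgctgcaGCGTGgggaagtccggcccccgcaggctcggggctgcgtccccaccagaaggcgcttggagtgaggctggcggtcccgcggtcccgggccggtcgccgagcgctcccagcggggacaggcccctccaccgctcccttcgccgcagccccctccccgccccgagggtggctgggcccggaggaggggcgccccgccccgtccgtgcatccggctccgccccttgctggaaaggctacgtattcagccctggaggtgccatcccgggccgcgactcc
EDN1: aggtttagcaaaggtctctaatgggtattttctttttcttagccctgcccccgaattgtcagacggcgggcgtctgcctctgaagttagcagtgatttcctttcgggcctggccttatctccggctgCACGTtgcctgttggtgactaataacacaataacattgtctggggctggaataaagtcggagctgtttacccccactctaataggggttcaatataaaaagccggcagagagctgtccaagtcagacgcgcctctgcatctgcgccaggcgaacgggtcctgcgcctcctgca
AGT: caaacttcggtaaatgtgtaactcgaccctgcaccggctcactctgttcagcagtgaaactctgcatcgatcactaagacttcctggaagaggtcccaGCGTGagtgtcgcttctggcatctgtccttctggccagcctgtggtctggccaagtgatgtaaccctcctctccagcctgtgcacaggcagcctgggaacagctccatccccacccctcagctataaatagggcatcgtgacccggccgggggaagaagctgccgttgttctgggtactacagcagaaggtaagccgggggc

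The 4 printed windows held 1 match each, whether the gene rose, fell or was not called. The ADM match began at -101 from the start, that of ADM2 at -225, that of EDN1 at -123 on the opposite strand and that of AGT at -152. At least 1 match was found in 48.4% of 35116 human promoters of 300 bases, so a match is common, and it says nothing about binding in these cells. RefSeq entries were found for 5 of the 7 genes. EDN1 had other entries upstream, with 3 matches in the one beginning at 12287769 and none in the one beginning at 12289764, and the 4 entries of ECE1 held 0, 0, 1 and 2 matches.

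The genes lie apart on 5 chromosomes in the GENCODE 29 annotation of GRCh38. ADM (ENSG00000148926) spans 10304680 to 10307397 on the plus strand of chromosome 11, and ADM2 (ENSG00000128165) spans 50481556 to 50486440 on the plus strand of chromosome 22. EDN1 (ENSG00000078401) is on the plus strand of chromosome 6 from 12290363 to 12297194. NPPB (ENSG00000120937) and AGT (ENSG00000135744) are both on the minus strand of chromosome 1, from 11857464 to 11858931 and from 230702523 to 230714297. ECE1 (ENSG00000117298) is on the same strand and chromosome from 21217247 to 21345572, and RAMP1 (ENSG00000132329) is on the plus strand of chromosome 2 from 237858893 to 237912114. Overlapping annotated genes could hardly have contributed reads: AL512328.1, which shares 6.8% of the exon bases of AGT, had 1 count against 103642 for AGT, and AL031728.1, which shares 3.3% of those of ECE1, had 9 against 40129.

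Total counts ran from 6013980 to 40549699 per library, and the smallest library was replicate 2 of normoxic vehicle. Levels are given as CPM, counts scaled to library size by the TMM method, and a gene was called in edgeR at a false discovery rate (FDR) below 0.05 with a fold change above 1.5. The 4 hypoxia genes CA9, EGLN3, NDRG1 and ANKRD37, a list chosen with earlier results known, all rose at 1% O2 and fell with 32-134D, as the labels would have it. Against normoxic vehicle CA9, NDRG1 and ANKRD37 were still called higher with 32-134D (log2 fold changes 1.03, 0.69 and 2.22). EGLN3 was not called there (-0.32). All 8 hepatocyte markers examined, ALB and HNF4A among them, had at least 10 counts, and their summed level in CPM, here without TMM scaling, was 17730 to 18910 in normoxic vehicle, 10810 to 13060 in hypoxic vehicle and 11590 to 17080 with 32-134D. The lower sum in hypoxia came with APOB, at means of 4487, 405.5 and 3520 CPM in these groups, while ALB, at 9284 and 9536 CPM in the vehicle groups, and 5 other markers were not called in hypoxia and AFP was called lower. Replicate 3 of 32-134D stood apart: the chi-square of its counts against those of the other two, divided by the degrees of freedom, was 36.4 and 32.5, against 1.62 to 12.02 for all other pairs within a group. Results of the 7 genes that involve the compound are therefore also given without it, and those of other genes where the call changes, an alternative chosen for them after the data were seen. To a lesser degree replicate 1 differed in both vehicle groups. Its pairs gave 6.21 and 12.02 against 1.62 in normoxic vehicle, and 7.9 and 11.81 against 2.48 in hypoxic vehicle. Such a value also grows with read depth, which differed between libraries. The SE and FDR in hypoxia come from the same fit of 9 libraries, so replicate 3 of 32-134D enters them too. Without it no hypoxia call of the 7 genes changed, but FDRs could be much smaller (2.84e-13 against 8.04e-05 for ADM2). In such bulk RNA, fewer cells expressing a gene and less RNA per cell cannot be told apart.

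ADM encodes adrenomedullin, a vasodilator peptide and a known HIF target. Its level was 12.9, 9.89 and 11.9 CPM in replicates 1, 2 and 3 of normoxic vehicle. It was 405, 432 and 453.5 CPM in hypoxic vehicle and 61.9, 60.7 and 64.2 CPM with 32-134D. The 3 groups did not overlap, and the 32-134D libraries lay within 4 CPM of each other, well above every normoxic library and well below every hypoxic vehicle library. ADM rose 36.5-fold in hypoxia (log2 fold change 5.19 ± 0.10 SE, FDR 1.77e-13, 3 libraries per group), which ranked it 51st from the top of the 22672 genes. With 32-134D it fell 6.91-fold (log2 fold change -2.79 ± 0.08, FDR 2.98e-11), and it remained 5.28-fold above normoxic vehicle (2.40 ± 0.09, FDR 1.00e-09). Without replicate 3 of 32-134D these were -2.81 and 2.37. Over the alternative settings the log2 fold change stayed between 4.98 and 5.23 in hypoxia and between -2.83 and -2.60 with the compound.

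ADM2 encodes intermedin, a relative of adrenomedullin that acts on the same receptors. Its level was 21.1, 21.98 and 22.5 CPM in normoxic vehicle. In hypoxic vehicle it was 60.3, 51.1 and 48.2 CPM. With 32-134D it was 24.9, 25.5 and 48.7 CPM. The first 2 of these 32-134D libraries lay just above the normoxic range, whereas replicate 3 lay inside the hypoxic vehicle range. ADM2 rose 2.43-fold in hypoxia (log2 fold change 1.28 ± 0.21, FDR 8.04e-05) and fell 1.63-fold with 32-134D (-0.70 ± 0.19, FDR 0.00766). The second call rested on which 32-134D libraries were used. Without replicate 1 the log2 fold change was -0.47 (FDR 0.0524), without replicate 2 it was -0.54 (FDR 0.0355, under the fold threshold), and without replicate 3 it was -1.08 (FDR 6.12e-11). Against normoxic vehicle the log2 fold change of 0.58 (95% interval 0.14 to 1.02, FDR 0.0921) was not called, and it was 0.20 without replicate 3.

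NPPB encodes B-type natriuretic peptide, a vasodilator and natriuretic hormone best known from heart muscle. In normoxic vehicle it was at 2.87, 2.36 and 2.22 CPM. It was at 20.4, 35.5 and 44.2 CPM in hypoxic vehicle. With 32-134D it was at 2.78, 2.49 and 1.01 CPM. The hypoxic vehicle libraries did not overlap either other group, whereas 2 of the 3 compound libraries lay inside the normoxic range and replicate 3 lay below it with 22 reads. NPPB rose 13.6-fold in hypoxia (log2 fold change 3.76 ± 0.32, FDR 1.57e-07) and fell 15.3-fold with 32-134D (-3.93 ± 0.30, FDR 1.13e-07), the 28th lowest log2 fold change of 22672. Without replicate 3 of 32-134D the fall was -3.64 on the log2 scale (FDR 7.13e-14). Against normoxic vehicle the difference of -0.17 had a 95% interval of -0.98 to 0.63 (FDR 0.836), and its sign turned without replicate 3 (0.12).

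The defining markers of heart muscle were near 0 beside NPPB. MYH6 had no count in any library, MYH7 had 3 in all, and 2 of the 4 cardiomyocyte markers, TNNT2 and ACTC1, had at least 10. Their summed level in CPM was 0 to 0.191 in normoxic vehicle, 0.499 to 0.839 in hypoxic vehicle and 0.190 to 0.351 with 32-134D. TNNT2 was called higher in hypoxia (FDR 0.00639), so these traces moved the same way as NPPB, at levels far below it, and their part in the result was not tested.

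EDN1 encodes endothelin-1, a strong vasoconstrictor made chiefly by vascular endothelium, and it was the one precursor of the set called lower in hypoxia. Its level was 9.90, 7.22 and 8.03 CPM in normoxic vehicle. In hypoxic vehicle only 18, 16 and 26 reads were counted, or 0.477, 0.754 and 0.899 CPM. With 32-134D it was 5.90, 6.40 and 1.601 CPM. The 3 groups did not overlap, although replicate 3 of the compound group, with 35 reads, lay much nearer the hypoxic vehicle libraries than the other two did. EDN1 fell 12.1-fold in hypoxia (log2 fold change -3.601 ± 0.42, FDR 3.77e-06) and rose 6.79-fold with 32-134D (2.76 ± 0.42, FDR 6.85e-05). Without replicate 3 the rise was 3.15 on the log2 scale (FDR 2.79e-13). Against normoxic vehicle EDN1 was at -0.84 (95% interval -1.57 to -0.11, FDR 0.143), and at -0.47 (FDR 0.0501) without replicate 3.

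Markers of the cells that usually make endothelin-1 were at or near 0. VWF and TEK had no count in any library, CDH5 had 1, and PECAM1 alone of the 4 endothelial markers had at least 10. Their summed level in CPM was 0.669 to 1.07 in normoxic vehicle, 0.0849 to 0.343 in hypoxic vehicle and 0.526 to 1.33 with 32-134D. PECAM1 was lower in hypoxia (log2 fold change -1.88, FDR 0.00650) and higher with the compound (1.93), the pattern of EDN1. Of 5 fibroblast and smooth muscle markers, 4 had at least 10 counts and ACTA2 had none, and the summed level of the list was 35.0 to 39.3, 12.1 to 13.4 and 30.1 to 31.7 CPM in the same order of groups. The part of either list in the EDN1 result was not tested.

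AGT encodes angiotensinogen, the liver-made precursor of the angiotensin peptides. It was at 537, 610.2 and 571 CPM in normoxic vehicle, at 371, 419 and 411 CPM in hypoxic vehicle and at 491, 486 and 321 CPM with 32-134D. Every hypoxic vehicle library lay below every normoxic one, while the compound libraries lay on both sides of the hypoxic range. The hypoxia difference of -0.52 on the log2 scale (95% interval -0.79 to -0.25, FDR 0.00292) was a 1.43-fold lower level and so stayed under the fold threshold. With 32-134D the difference was 0.11 (95% interval -0.16 to 0.38, FDR 0.495), and 0.29 without replicate 3. Against normoxic vehicle it was -0.40 (95% interval -0.67 to -0.13, FDR 0.0585), and -0.23 without that library.

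ECE1 encodes endothelin-converting enzyme 1, the membrane peptidase that cuts big endothelin-1 to its active form. It was at 187.5, 229.7 and 226 CPM in normoxic vehicle, at 139.7, 156 and 150 CPM in hypoxic vehicle and at 192, 190.3 and 151 CPM with 32-134D. The normoxic and hypoxic vehicle libraries did not overlap, and replicate 3 of the compound group lay among the hypoxic vehicle libraries, as it did for ADM2. In hypoxia ECE1 was 1.44-fold lower (log2 fold change -0.53 ± 0.10, FDR 0.000419), again under the fold threshold, and with the compound it was 1.196-fold higher (0.26 ± 0.10, FDR 0.0472), or 0.36 on the log2 scale without replicate 3. In 32-134D cells it stood at -0.27 against normoxic vehicle (95% interval -0.49 to -0.05, FDR 0.111), or -0.17 without that library. AGT and ECE1 were both called lower in hypoxia when scaling used total library size (-0.73 and -0.74, a scaling that moved the median of all genes by -0.21), with at least 10 counts required in every library, after thinning to the smallest library, and without replicate 1 of normoxic vehicle (-0.62 and -0.67).

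RAMP1, which joins the calcitonin receptor-like receptor to form the receptor of calcitonin gene-related peptide (CGRP), was hardly expressed, with 227 counts in all. It was at 0.502, 1.57 and 0.912 CPM in normoxic vehicle, at 0.636, 0.849 and 1.24 CPM in hypoxic vehicle and at 1.19, 0.774 and 1.69 CPM with 32-134D. The 3 groups overlapped throughout. The log2 difference was 0.0033 in hypoxia with a 95% interval of -0.89 to 0.90 (FDR 0.996), 0.41 with the compound (95% interval -0.38 to 1.197, FDR 0.389) and 0.41 against normoxic vehicle (95% interval -0.46 to 1.29, FDR 0.594), or 0.15 and 0.16 without replicate 3 in the last 2. Changes within these intervals were not excluded.

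**Figure D1:**
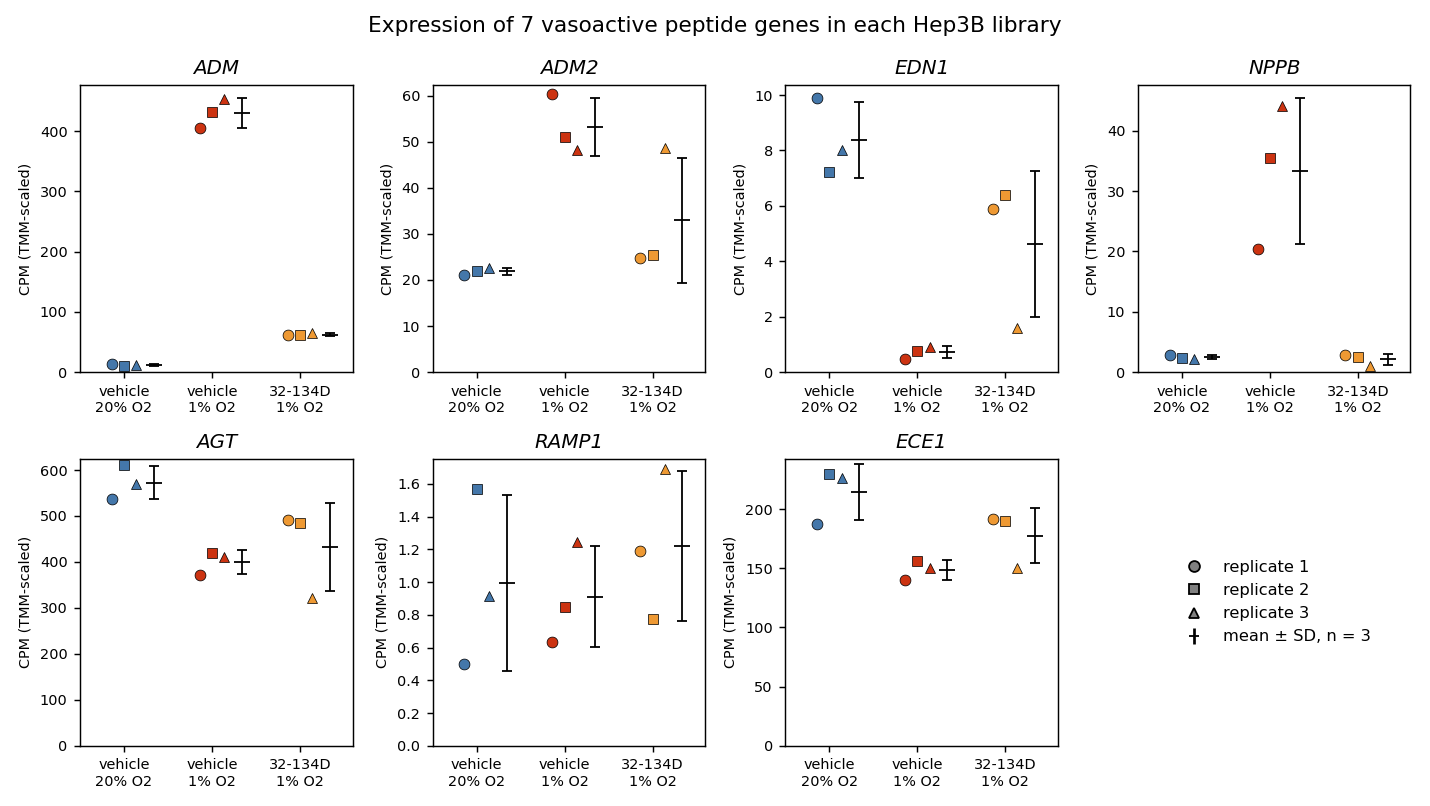
Level of each of the 7 genes in CPM on a linear axis from 0, 1 panel per gene, with 1 point per library shaped by replicate number and, beside the points of each group, the mean with SD bars (n = 3). ADM separates into 3 levels, with means of 11.6, 430.1 and 62.3 CPM in normoxic vehicle, hypoxic vehicle and 32-134D, and the wide spread of the 32-134D points for ADM2 and EDN1 comes with replicate 3.

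In hypoxia 3 of the 7 genes were called higher, where 19.5% of all genes tested were, and 1 was called lower, where 20.3% were. With 32-134D 1 was called higher against 16.2% of all genes and 3 were called lower against 13.7%. In 32-134D cells set against normoxic vehicle 1 was called higher, against 3.0% of all genes. In edgeR 0 were called lower, against 0.516% of all genes, and DESeq2 called 0 lower as well. EDN1, AGT and ECE1 lay lower at an unadjusted p under 0.05 in edgeR. The share of all genes at that cut is not given here, so the 3 cannot be read as an excess. The median log2 fold changes of the set, 0.0033, 0.11 and -0.17 in these comparisons, stood beside 0.0010, -0.01 and -0.0028 over all genes. With 7 genes of which 3 rose and 1 fell in hypoxia, such a median hides opposite movements. The comparisons share libraries, the hypoxic vehicle group serving in the first and the second, so opposite signs in them are not separate evidence. Because the set was chosen with earlier results known, its shares beside those of all genes are a description and not a test.

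**Figure D2:**
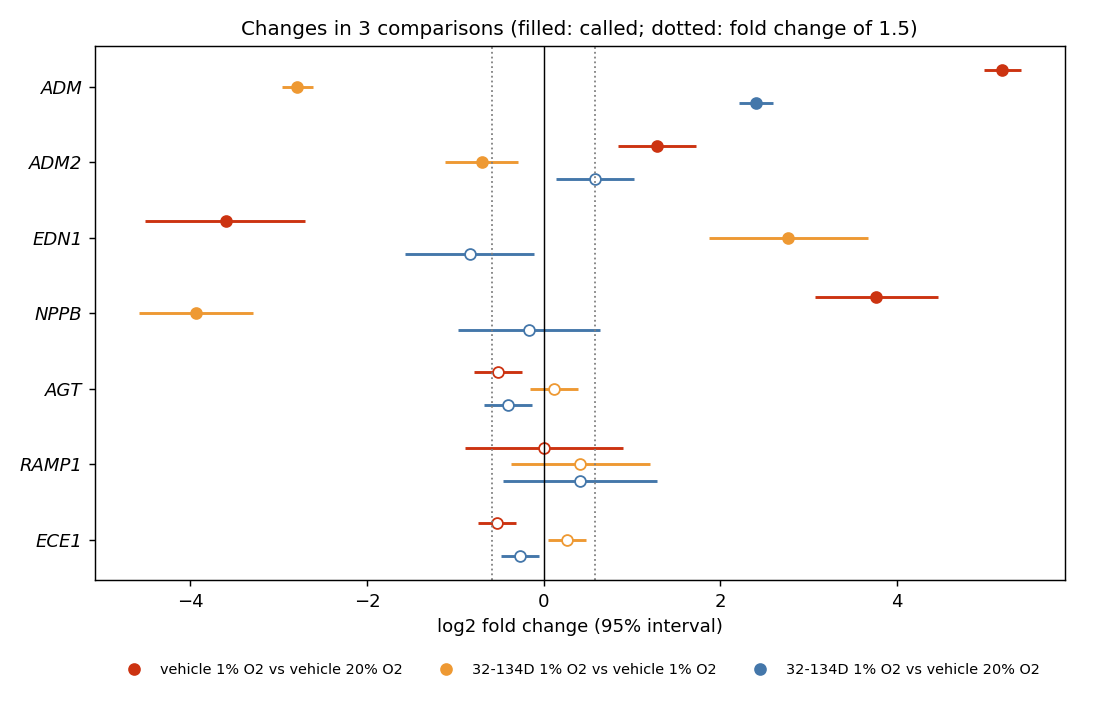
Log2 fold change of the 7 genes in 3 comparisons, with 95% intervals as bars, filled points for called genes and dotted lines at a fold change of 1.5. ADM, ADM2, NPPB and EDN1 have filled points of opposite sign in hypoxia and with 32-134D, and ADM is the only gene with a filled point against normoxic vehicle (2.40).

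On the log2 scale the called genes differed in how far 32-134D took them back towards the normoxic level. The order of the genes belongs to that scale. In CPM most of the rise of ADM was gone, with means of 11.6 in normoxic vehicle, 430.1 in hypoxic vehicle and 62.3 with 32-134D. For EDN1 the means in the same order were 8.38, 0.710 and 4.63 CPM. Removal was computed in each 32-134D library as the share of the log2 difference between the means of the 2 vehicle groups that was no longer present, and it has no test because those means enter every value. For ADM it was 53.5%, 54.1% and 52.6%, or 53.4% ± 0.783 (SD, n = 3). For NPPB it was 95.4%, 99.6% and 133.8%, or 109.6% ± 21.0 (SD, n = 3), a value past 100% standing for a level below the normoxic mean. The ADM libraries were closely alike and all near the middle of the log2 range, whereas NPPB was back near or below the mean normoxic level in each library. For EDN1 removal was 85.8%, 89.2% and 32.7%, or 69.2% ± 31.7 (SD, n = 3). For ADM2 it was 85.5%, 82.7% and 9.58%, or 59.3% ± 43.1 (SD, n = 3). In both genes replicate 3 was the low library, and without it the means were 87.5% for EDN1 and 84.2% for ADM2, against 53.8% for ADM and 97.6% for NPPB.

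**Figure D3:**
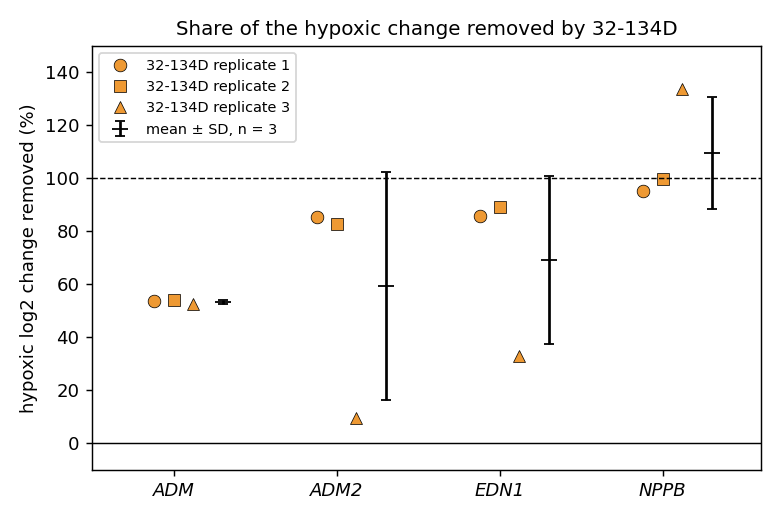
Share of the log2 change in hypoxia that was absent in each 32-134D library, in percent, for the 4 genes called in hypoxia, with 1 point per library shaped by replicate number, the mean with SD bars (n = 3) and a dashed line at 100%. The ADM points lie together between 52.6% and 54.1%, and replicate 3 lies lowest for ADM2 (9.58%) and EDN1 (32.7%) and highest for NPPB (133.8%).

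Levels of different genes were compared per length, as TPM, the counts divided by the merged exon length of each gene and scaled to a common total. In normoxic vehicle AGT was at 966 ± 81.2 TPM (SD, n = 3) and ECE1 at 113 ± 14.8 TPM. ADM2 at 19.8 ± 1.12, ADM at 16.4 ± 1.90, EDN1 at 15.9 ± 2.22 and NPPB at 13.8 ± 1.55 TPM followed, and RAMP1 was lowest at 3.14 ± 1.74 TPM. AGT, ECE1 and RAMP1 were each separated from their neighbours, and among the precursors between them the ranges of ADM, EDN1 and NPPB overlapped in turn, so their order is not resolved. ADM2 stood above those 3 by merged exon length, but at 14.9 against 17.7 TPM it stood below ADM by the longest transcript. In hypoxic vehicle ADM reached 506 ± 16.3 TPM, next to AGT at 558 ± 19.4 TPM. NPPB at 153 ± 51.8 TPM lay above ECE1 at 64.8 ± 1.89 TPM in every library. ADM2 at 39.9 ± 6.02 TPM came next, and RAMP1 at 2.35 ± 0.748 and EDN1 at 1.11 ± 0.310 TPM were last, which moved EDN1 from the level of ADM to the lowest of the set. In 32-134D cells AGT was at 717 ± 151, ECE1 at 92.1 ± 10.8 and ADM at 87.2 ± 3.69 TPM, where the ranges of ECE1 and ADM overlapped. ADM2 at 29.5 ± 12.7, NPPB at 11.4 ± 5.06, EDN1 at 8.63 ± 4.87 and RAMP1 at 3.77 ± 1.47 TPM followed, with overlap between NPPB and EDN1 and between EDN1 and RAMP1.

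The vasodilator precursor ADM and the vasoconstrictor precursor AGT thus came close in hypoxia. The ratio of ADM to AGT per length was 0.0203, 0.0137 and 0.0175 in normoxic vehicle. It was 0.921, 0.869 and 0.931 in hypoxic vehicle and 0.106, 0.105 and 0.168 with 32-134D. The 3 groups did not overlap in this ratio. Which of the pair is higher in hypoxia depends on the length used: with the longest transcript in place of the merged exons the hypoxic ratios were 1.33, 1.25 and 1.34.

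**Figure D4:**
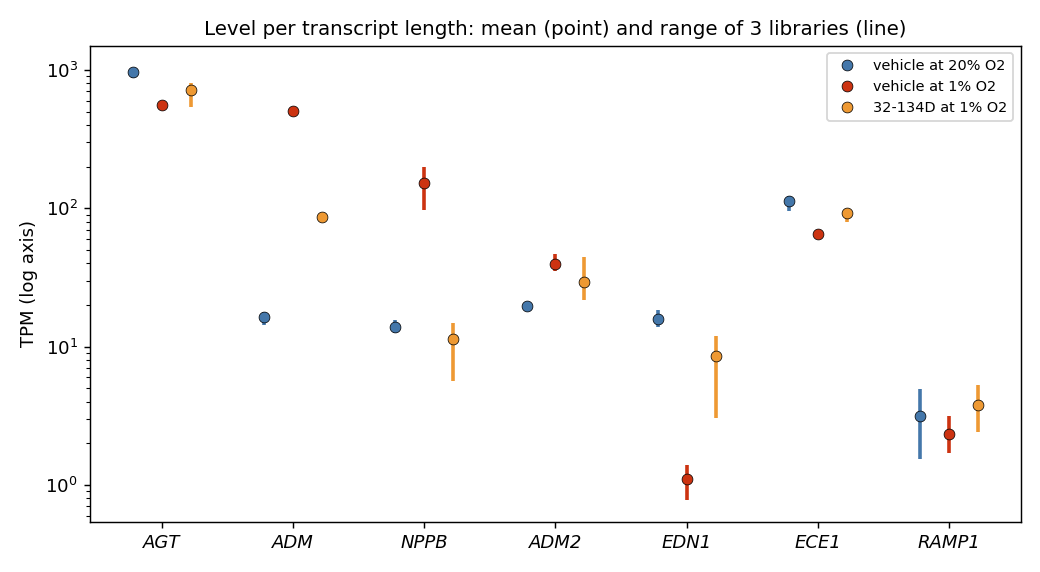
Level of the 7 genes in TPM on a log axis, by group, with a point at the mean of 3 libraries and a line over their range. AGT is highest in normoxic vehicle at a mean of 966 TPM, ADM joins it in hypoxic vehicle at 506 against 558 TPM, and EDN1 drops from 15.9 to 1.11 TPM.

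The other genes of the adrenomedullin and CGRP, endothelin, natriuretic peptide and angiotensin systems were examined from a written list of 36, of which 24 had enough counts to be tested. This list was also chosen with earlier results known, so its shares are a description. In hypoxia 3 of the 24 were called higher and 5 lower, and with 32-134D 4 were higher and 3 lower, shares near those of all genes tested (19.5% and 20.3% in hypoxia, 16.2% and 13.7% with the compound). Against normoxic vehicle 1 was called higher and 1 lower, where 3.0% and 0.516% of all genes tested were. Without replicate 3 of 32-134D the calls with the compound differed for 1 of the 24, ACKR3, an atypical receptor that binds adrenomedullin, which then passed as lower (-1.81, FDR 0.0458). Their median log2 fold changes were 0.20, -0.21 and -0.09, and 0.0078, -0.13 and -0.07 with groups of at most 3 counts per library set to 3 counts, beside 0.0010, -0.01 and -0.0028 over all genes.

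In the adrenomedullin and CGRP system, PAM, the enzyme that amidates the end of adrenomedullin and many other peptides, moved with ADM. It was at 46.1 ± 1.90 CPM in normoxic vehicle, 120.2 ± 1.16 in hypoxic vehicle and 54.4 ± 1.58 with 32-134D (SD, n = 3), with log2 fold changes of 1.38 (FDR 6.89e-10) and -1.14 (FDR 9.61e-09). ADM5, a further gene named for this family, moved the other way, by -1.58 (FDR 6.31e-06) in hypoxia and 1.33 (FDR 3.33e-05) with the compound, at means between 1.19 and 3.604 CPM. CRCP, which encodes a component that aids CGRP receptor signalling, was at 57.7, 71.5 and 59.5 CPM in the 3 groups and was not called. The receptor itself had few counts, whereas RAMP2 was near the level of ADM per length in normoxic vehicle (17.9 against 16.4 TPM). CALCRL, the receptor that adrenomedullin and intermedin use, had 123 counts in all and means of 0.520 to 0.555 CPM, RAMP2 had means of 4.21 to 5.33 CPM, and neither was called in any comparison. RAMP3 and CALCR had 1 count each.

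In the endothelin system 4 of 8 genes could be tested, and 3 were called lower in hypoxia, where 20.3% of all genes tested were. Besides EDN1 these were EDNRB, an endothelin receptor, and FURIN, a convertase that cuts the endothelin precursor before ECE1 does. EDNRB had 85 counts in all and means of 0.771, 0.127 and 0.460 CPM in the 3 groups, with log2 fold changes of -2.47 (FDR 0.00372) in hypoxia and 2.001 (FDR 0.0123) with 32-134D. FURIN was at 747 ± 47.0, 440.3 ± 15.2 and 615 ± 44.1 CPM (SD, n = 3), and it fell in hypoxia (-0.76, FDR 6.65e-07) and was 0.48 higher with the compound, under the fold threshold. EDN2, EDN3, EDNRA and ECE2 had no count.

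In the natriuretic peptide system 6 of 8 genes were tested, and NPPC, the precursor of C-type natriuretic peptide, was called beside NPPB. NPPC had at most 1 count in any normoxic vehicle library and a mean of 2.16 CPM in hypoxic vehicle, at least 8.32-fold higher than 3 counts in each normoxic library would give. With 32-134D it was at 0.715 CPM, a log2 fold change of -1.58 (FDR 0.000245), and it stayed at least 2.76-fold above that floor. Of the 24 other genes tested in the 4 systems, NPPC alone was still called higher than in normoxic vehicle. The receptors NPR1, at 7.66, 11.1 and 8.21 CPM in the 3 groups, and NPR2, at 38.1, 38.6 and 36.8 CPM, were not called. NPPA, the atrial peptide gene, had 6 counts.

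In the angiotensin system 10 of 13 genes were tested. AGTR1, the main receptor of angiotensin II, was at 72.1 ± 3.52, 122 ± 4.76 and 67.4 ± 1.99 CPM (SD, n = 3), and it rose in hypoxia (0.76, FDR 3.20e-07) and fell with 32-134D (-0.86, FDR 1.79e-07). The aminopeptidases ANPEP and LNPEP, which trim angiotensin peptides among others, went the other way. ANPEP fell by 1.40 on the log2 scale in hypoxia (FDR 4.21e-05) and rose by 0.71 with the compound (FDR 0.0106), with means of 269.9, 102 and 166.5 CPM. Of the 24 other genes tested in the 4 systems, ANPEP alone was still called lower than in normoxic vehicle (-0.69, FDR 0.0460). That call was lost without replicate 3 of 32-134D (-0.42, FDR 0.00178, under the fold threshold). LNPEP changed by -0.70 (FDR 0.000516) and 0.68 (FDR 0.000692). ACE, the enzyme that converts angiotensin I to angiotensin II, had 301 counts in all and was not called.

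**Figure D5:**
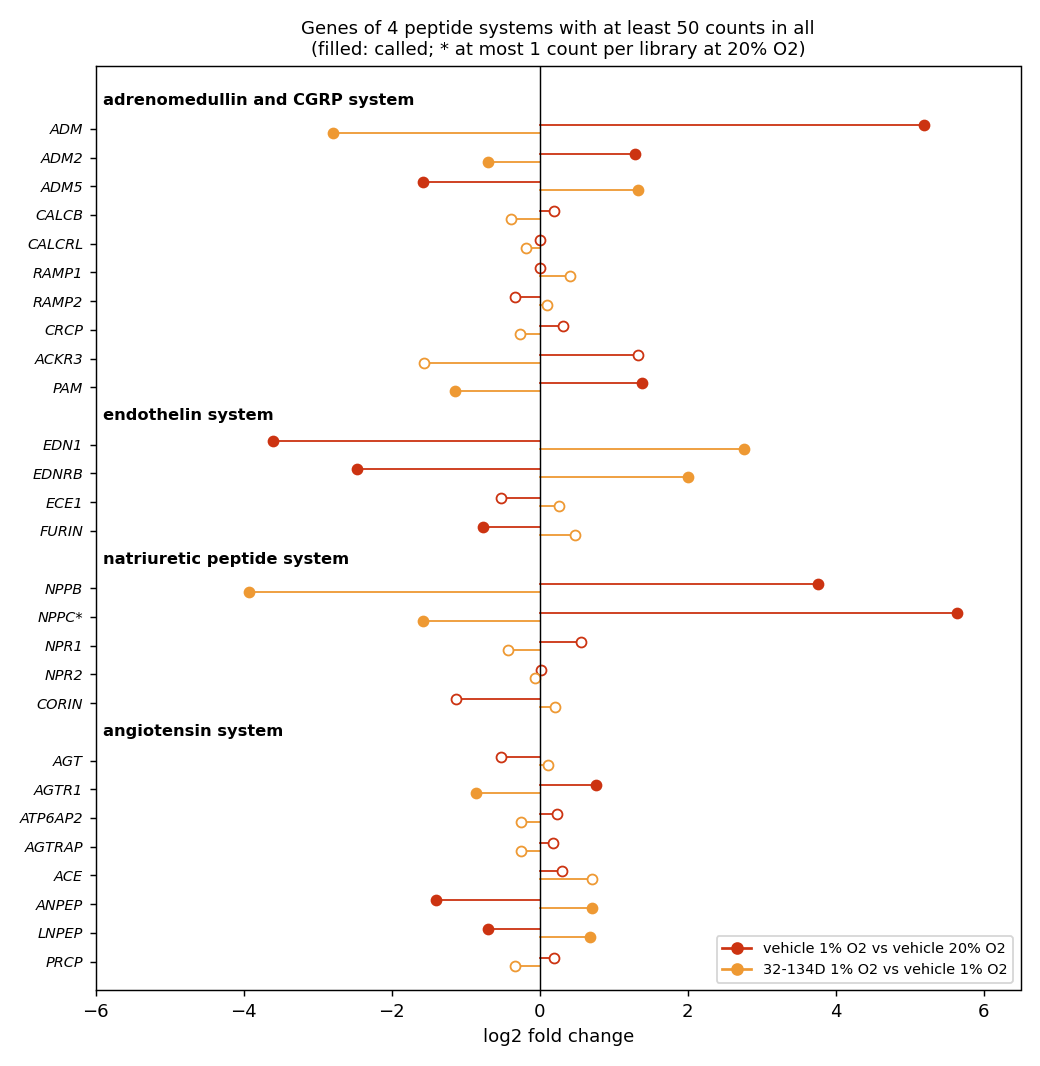
Log2 fold change in hypoxia and with 32-134D for the genes of 4 peptide systems with at least 50 counts in all, filled where called. ADM, PAM, NPPB and AGTR1 lie to the right in hypoxia and to the left with the compound, EDN1 and EDNRB the reverse, and the hypoxia value of NPPC, marked with a star, is a fitted one for a gene with at most 1 count in any normoxic vehicle library.

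The genes whose pattern was most like each of the 7 were found by the root mean square (RMS) difference of log2 CPM, centred on each gene, over the 9 libraries among 13910 genes with a mean of at least 1 CPM. They were ARRDC4 (0.27) and PFKFB4 (0.30) for ADM, where the median gene differed by 2.09. For NPPB they were GHRHR (0.33) and INHA (0.33) against a median of 1.82. EDN1 was closest to PALMD (0.18) and SPTLC3 (0.19) against 1.602, and ADM2 to TUBA1A (0.12) and RCN1 (0.12) against 0.59. With 32-134D, ARRDC4 and PFKFB4 also stayed above normoxic vehicle, by 2.52 and 2.04 on the log2 scale. They were picked for likeness to ADM over these same libraries, so this is not separate evidence. The nearest genes of AGT were CDC42EP4 (0.04) and PNKD (0.04) against 0.44, those of ECE1 were JARID2 (0.05) and CBX2 (0.05) against 0.41, and those of RAMP1 were ZNF25 (0.28) and SMG1P2 (0.28) against 0.62, a small distance being easy to reach for genes that vary little.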

How the data were processed

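RNA was sequenced from 9 Hep3B cultures in 3 groups of 3 biological replicates. The authors deposited raw counts per Ensembl gene (release 100, GRCh38), made after read checks with FastQC, trimming with Bbduk, mapping with STAR and counting with featureCounts. Tool versions and the strand setting are not given in the sources used here. Columns were matched to samples by the names in the sample titles, and 0 columns were left unmapped. Total counts of 6013980 to 40549699 per library limit precision for the genes with few reads.

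The counts of 22672 genes, those summing to at least 10, entered 1 quasi-likelihood fit of the 9 libraries in edgeR 4.0.16 (R 4.3.3) with TMM scaling and Benjamini-Hochberg adjustment over all of them, where the study used DESeq2. Calls needed an FDR below 0.05 and a fold change above 1.5, and p-values measure the spread between 3 cultures per group. Log2 CPM used a prior count of 2. Fold changes are unshrunk, with the SE from the F statistic. TPM used merged exon lengths of GENCODE 29, found for 22265 of the tested genes. Marker lists were summed as CPM of the total count, without TMM. The fit was tested on simulated counts.

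The 7 genes and the lists were chosen with earlier results of these data known. Named genes are the 7, listed genes, overlapping genes, and for each of the 7 the 2 genes of nearest pattern. Alternatives were DESeq2 1.42.0, other scalings, filters, thresholds, lengths and prior counts, fits of 2 groups, a replicate block, thinning and leaving out each library. One listed gene is not reported here.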

Additional observations from a re-analysis of the deposited data

How the results depend on the processing

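Among the log2 fold changes of the 7 genes under the alternatives, 327 kept their direction and their side of the thresholds, 14 passed them anew, 4 no longer did and 9 changed sign. The sign changed for RAMP1 in hypoxia with DESeq2 (-0.0685), RLE scaling (-0.0392), total library size (-0.21) and thinning (-0.52), and it ran from -0.32 to 0.25 when each library was left out. Leaving out each library gave NPPB values from -0.42 to 0.12 between 32-134D and normoxic vehicle. In that comparison 2 of the 7 genes were called with DESeq2, 3 with no filter, 2 after thinning and 1 to 2 when each library was left out (ADM2 joined without replicate 1 or 2 of 32-134D). Calls over all genes also moved there, from 568 to 962 when each library was left out. For DESeq2, no filter and thinning the calls over all genes are not given here, so these counts are no result about the 7 genes. Removal for ADM was 52.0% with total library size and 51.9% to 54.5% when each library was left out. With the longest transcript in place of merged exons, in TPM for normoxic vehicle, hypoxic vehicle and 32-134D, AGT was 726, 413 and 538, ADM was 539 and 94.1 in the last 2 groups, ADM2 was 14.9 and 29.6 in the first 2, EDN1 was 11.9 and NPPB 10.4 in normoxic vehicle, and ECE1 was 69.0 in hypoxic vehicle. The call of ADM2 with 32-134D was lost with total library size (-0.51) and thinning (-0.52). Same-numbered libraries deviated with correlations of -0.032 to 0.0052, so no pairing by number was seen. With 3 libraries per group and many genes of few reads, such values cannot exclude pairing. With a replicate block 4, 4 and 1 genes were called in the 3 comparisons, as without it. RAMP1 could not be tested with at least 10 counts in every library. Few reads limit RAMP1 and EDN1, and no 32-134D group at 20% O2 exists to separate the compound from the response to hypoxia. The causes of these shifts were not tested.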

Other observations

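Other vasoactive signals outside the 4 peptide systems moved in both directions. Of a list of 17 genes, chosen with earlier results known, 10 had enough counts. In hypoxia 3 were called higher and 4 lower, with a median log2 fold change of -0.36. With 32-134D 3 were higher and 3 lower (median 0.54). Of all genes tested, 19.5% were called higher and 20.3% lower in hypoxia, and 16.2% and 13.7% with the compound. NTS, the precursor of neurotensin, was at 349.7 ± 76.4, 1444 ± 67.9 and 461 ± 18.7 CPM (SD, n = 3) in normoxic vehicle, hypoxic vehicle and 32-134D, and it rose by 2.05 on the log2 scale in hypoxia (FDR 2.56e-09) and fell by 1.65 with the compound (log2 fold change -1.65, FDR 5.39e-08). APLN, the precursor of apelin, a vasodilator peptide, was at 0.232, 2.87 and 0.304 CPM, with log2 fold changes of 3.28 (FDR 8.64e-07) and -3.19 (FDR 5.56e-07). The kinin receptor gene BDKRB2 had at most 1 count in any normoxic vehicle library and was at least 5.12-fold higher in hypoxic vehicle than 3 counts in each would give.

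KNG1, KLKB1, UTS2R and APELA were the 4 called lower at 1% O2. KNG1, the kininogen from which bradykinin is cut, was at 40.5 ± 4.93, 14.1 ± 2.05 and 24.3 ± 16.0 CPM (SD, n = 3), and it fell in hypoxia (-1.53, FDR 0.00484) and was not called with 32-134D (0.81, FDR 0.108), whereas without replicate 3 of 32-134D it was called higher (1.27, FDR 5.44e-11). The other 9 kept their compound calls without that library, and UTS2B, AVP and NOS3 were called in neither comparison. KLKB1, the plasma kallikrein that cuts it, fell (-1.82, FDR 0.000362) and rose with the compound (1.94, FDR 0.000146), at means between 0.485 and 1.86 CPM. UTS2R, the urotensin receptor gene, changed by -1.94 (FDR 0.00150) and 1.83 (FDR 0.00171). APELA, which encodes a further ligand of the apelin receptor, had at most 3 counts in any hypoxic vehicle library and was at least 4.53-fold higher in normoxic vehicle and at least 4.98-fold higher with 32-134D than 3 counts in each hypoxic library would give.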
